A study of Homo sapiens with 4 samples.

Results

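The 9 genes described here, TP63, NGFR, GATA3, FOXA1, ELF3, KLF5, SOX9, TFAP2A and TFAP2C, are regulators and markers that set apart the 2 epithelial layers of the mammary gland. They were taken by name from the 63856 genes of the count table, with earlier results of these data known. All 9 passed the filter on low counts that left 15830 genes for testing. The libraries came from MCF10A, a non-tumorigenic human breast epithelial line. There were 2 libraries of wild type cells and 2 of cells stably transduced with lentivirus carrying HSF1 cDNA in pLVX-Puro and selected with puromycin (HSF1-pLVX), all grown in medium with horse serum, insulin, hydrocortisone, EGF and cholera toxin. HSF1 is the master transcription factor of the heat shock response. Cells with the empty vector were not analysed here, so an effect of HSF1 cannot be told apart from one of the vector, its selection or separate culture.

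The mammary duct has an inner layer of luminal cells, which face the lumen and include the milk-producing lineage, and an outer layer of basal or myoepithelial cells on the basement membrane. TP63 is the p53-family transcription factor that maintains basal epithelia, and NGFR, the low-affinity neurotrophin receptor p75, marks basal cells. GATA3 and FOXA1 are transcription factors of luminal differentiation, FOXA1 being a pioneer factor of hormone-responsive cells, and ELF3 is an epithelial ETS factor. KLF5, SOX9 and the AP-2 factors TFAP2A and TFAP2C are found in both layers or in progenitors and are described separately.

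Levels are given as CPM, counts scaled to library depth with TMM normalization, and, wherever genes are compared with each other, as RPKM, which is CPM per kilobase of counted exon. Library totals lay between 18688109 and 24184285 counts, and mitochondrial transcripts took 8.482 and 7.545% of the counts in the wild type and 9.836 and 10.969% in the HSF1-pLVX libraries. The part of that difference in the results was not tested. HSF1 itself had 194.8 ± 7.94 CPM in wild type and 990.5 ± 11.5 CPM in HSF1-pLVX cells (SD, n = 2 each). On the log2 scale the fitted rise was 2.35 with an SE of 0.0999 (edgeR adjusted p = 1.14e-10). The counts do not separate introduced from endogenous HSF1.

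At an adjusted p of 0.05, 7 of the 9 regulators were called, 2 higher and 5 lower in HSF1-pLVX cells. Of all genes tested, 65.9% were called, 32.7% higher and 33.2% lower, so the number of regulators called lies near the background of this comparison. Both basal genes rose, GATA3 and FOXA1 fell, and of the remaining genes SOX9, TFAP2A and TFAP2C fell, while ELF3 and KLF5 did not pass the test. At least 2-fold changes in called genes were seen upwards in 2 of the 9, TP63 and NGFR, against 14.9% of all genes tested, and downwards in 2, GATA3 and SOX9, against 14.0%. TFAP2C, with a log2 fold change of -0.99, lay just under that limit. In bulk RNA, a change in the share of cells of a type and a change of RNA per cell cannot be told apart.

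**Figure D1:**
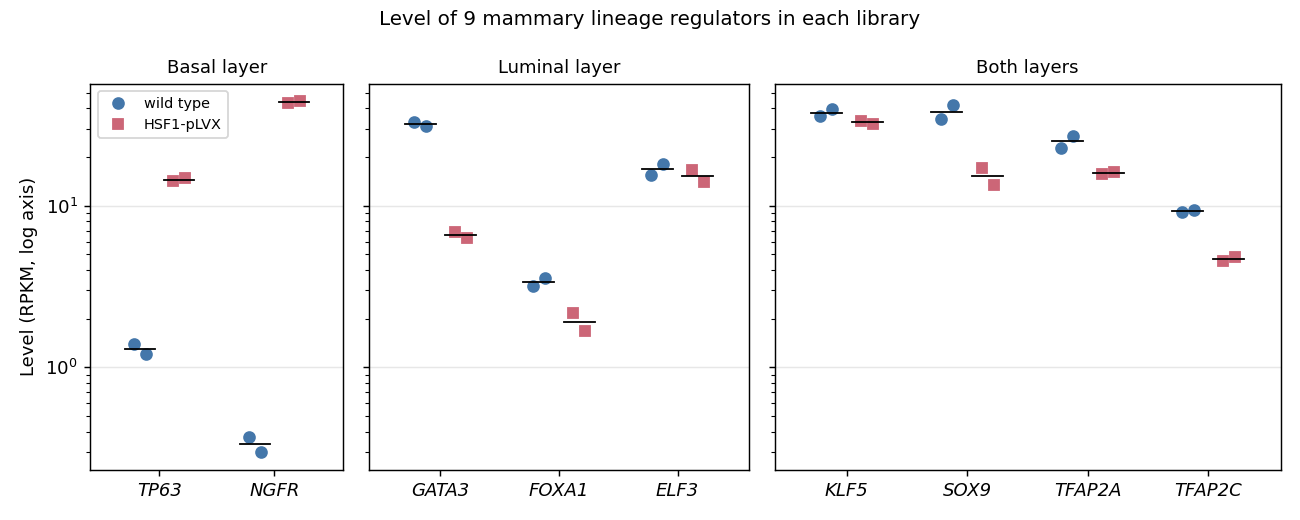
Level of each regulator in RPKM on a log axis, with blue circles for the 2 wild type libraries, red squares for the 2 HSF1-pLVX libraries and a black line at each mean. TP63 and NGFR lie lowest of the 9 in wild type cells, and NGFR lies highest in HSF1-pLVX cells.

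NGFR (ENSG00000064300.8, chromosome 17 of hg38, 49495293 to 49515017) was almost absent from wild type cells. Its counts were 29 and 23 in the wild type libraries and 4519 and 3654 in the HSF1-pLVX libraries. In CPM these were 1.545 and 1.238 against 180.0 and 183.9. The HSF1-pLVX libraries thus lay close together and far above both wild type libraries. Groups that do not overlap were found for 83.1% of all genes tested. The fitted log2 fold change was 7.02 with an SE of 0.135 (edgeR adjusted p = 1.52e-13), a 130.1-fold difference, and 13 of the 15830 genes tested had a larger rise. Leaving out single libraries gave log2 fold changes of 6.86 to 7.21.

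TP63 (ENSG00000073282.12, chromosome 3, 189631416 to 189897279) was low but clearly counted in wild type cells, with 195 and 167 counts. Its level was 10.39 and 8.988 CPM in wild type and 105.8 and 109.9 CPM in HSF1-pLVX cells. The groups did not overlap, which held for 83.1% of all genes tested. The log2 fold change of 3.48 (SE 0.103, edgeR adjusted p = 5.08e-12) is an 11.12-fold rise, and 139 tested genes had a larger one. In RPKM, TP63 moved from percentiles 33.7 and 30.7 of the tested genes in the wild type libraries to 82.5 and 82.9 in the HSF1-pLVX libraries. NGFR moved from percentiles 14.3 and 11.1 to 94.6 and 94.7.

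TP63 is transcribed from an upstream start, which gives the full-length TAp63 forms, and from an internal start, which gives the ΔNp63 forms that prevail in basal epithelia. In GENCODE release 44, 6 of its 14 transcripts begin at or near the first start at 189631389 and 8 begin at or after 189789659. The deposited counts are per gene, so the 2 classes were not separated here. The RefSeq window set used here holds 1 window for TP63, which covers the upstream start alone, so the internal start was not searched. Printed because the gene rose, this window spans 250 bases before to 50 after the upstream start on the plus strand of GRCh38.p14, chr3:189631139-189631438:
TP63: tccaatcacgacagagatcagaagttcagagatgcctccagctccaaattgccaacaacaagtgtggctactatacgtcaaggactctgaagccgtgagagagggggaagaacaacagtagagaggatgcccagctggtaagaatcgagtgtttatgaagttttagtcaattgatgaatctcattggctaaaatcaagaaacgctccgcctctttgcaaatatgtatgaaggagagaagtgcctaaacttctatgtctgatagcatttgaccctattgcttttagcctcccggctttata
No letter is in capitals, since it holds none of 3 motifs searched on both strands. These were a heat shock element core (GAANNTTC or TTCNNGAA, the paired repeats bound by HSF1), an AP-2 core (GCCNNNGGC) and a GATA site (AGATAA), present in 13.5%, 23.2% and 10.3% of 35116 promoter windows of the same length.

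GATA3 (ENSG00000107485.15, chromosome 10, 8053604 to 8075198) had the largest fall of the 9. It had 107.7 and 101.6 CPM in wild type and 22.35 and 20.54 CPM in HSF1-pLVX libraries. Both HSF1-pLVX libraries thus lay far below both wild type libraries, where 83.1% of all genes tested had groups that did not overlap. Its log2 fold change was -2.28 with an SE of 0.0909 (edgeR adjusted p = 6.56e-11), which is 4.871-fold lower, and 666 tested genes had a larger fall. In RPKM percentile it went from 91.7 and 91.5 to 66.9 and 65.1. The same window set holds 6 promoter windows for GATA3. The one at the canonical GENCODE start, shown with its AP-2 core in capitals, is at chr10:8054438-8054737 on the plus strand:
GATA3: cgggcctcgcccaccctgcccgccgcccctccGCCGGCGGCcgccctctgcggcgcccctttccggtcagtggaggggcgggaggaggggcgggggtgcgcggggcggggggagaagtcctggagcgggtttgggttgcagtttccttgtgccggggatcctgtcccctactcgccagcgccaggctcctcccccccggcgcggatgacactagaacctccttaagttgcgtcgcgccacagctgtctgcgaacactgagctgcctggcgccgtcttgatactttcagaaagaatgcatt
An AP-2 core was found in 3 of the 6 GATA3 windows and a heat shock element core in 0. A match of letters is a description of the sequence and does not show binding.

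FOXA1 (ENSG00000129514.5, chromosome 14, 37589984 to 37596059) was weakly expressed and fell less than GATA3. Its levels were 12.63 and 14.26 CPM in wild type and 8.604 and 6.644 CPM in HSF1-pLVX libraries. These did not overlap, like those of 83.1% of all genes tested. The log2 fold change was -0.81 with an SE of 0.150 (edgeR adjusted p = 0.000268). ELF3 (ENSG00000163435.15, chromosome 1, 202007945 to 202017188) had 111.9 and 130.4 CPM in wild type and 120.4 and 100.3 CPM in HSF1-pLVX libraries. The groups of ELF3 overlapped, and its log2 fold change of -0.13 (SE 0.105, 95% interval -0.36 to 0.09) did not pass the test (edgeR adjusted p = 0.281). Without HSF1-pLVX replicate 2 the log2 fold change of ELF3 was 0.0021. The 3 luminal regulators therefore did not move by like amounts: from GATA3 to ELF3 the log2 fold change ran from -2.28 to -0.13.

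SOX9 (ENSG00000125398.5, chromosome 17, 72121020 to 72126420), a factor of mammary progenitor cells, had 136.0 and 164.9 CPM in wild type and 67.67 and 53.05 CPM in HSF1-pLVX libraries. Its log2 fold change was -1.31 with an SE of 0.120 (edgeR adjusted p = 2.58e-07). Both HSF1-pLVX libraries lay well below both wild type libraries, and in 83.1% of all genes tested the groups did not overlap. KLF5 (ENSG00000102554.13, chromosome 13, 73054976 to 73077542), a Krüppel-like factor of proliferating epithelial cells, had 139.8 and 153.4 CPM in wild type and 130.6 and 124.8 CPM in HSF1-pLVX libraries. The KLF5 levels did not overlap between the groups, as was the case for 83.1% of all genes tested. Its log2 fold change of -0.20 (SE 0.0887, 95% interval -0.39 to -0.01) missed the threshold after adjustment in edgeR's quasi-likelihood test (adjusted p = 0.0620). Without wild type replicate 1 the KLF5 change passed (edgeR adjusted p = 0.0498), and over all alternatives its adjusted p lay between 0.0291 and 0.287.

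TFAP2A and TFAP2C encode AP-2α and AP-2γ, paralogous factors of ectodermal and mammary epithelium, and both fell. TFAP2A (ENSG00000137203.10, chromosome 6, 10393186 to 10419659) had 188.1 and 223.8 CPM in wild type and 129.8 and 132.5 CPM in HSF1-pLVX libraries. TFAP2C (ENSG00000087510.6, chromosome 20, 56629302 to 56639283) had 27.44 and 28.20 CPM in wild type and 13.66 and 14.45 CPM in HSF1-pLVX libraries. The groups did not overlap for either gene, nor did they for 83.1% of all genes tested. The log2 fold changes were -0.65 for TFAP2A (SE 0.0980, edgeR adjusted p = 4.09e-05) and -0.99 for TFAP2C (SE 0.103, edgeR adjusted p = 1.11e-06). Reads from stretches alike in both genes could be split between them by the counting.

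The RefSeq window set used here holds 13 promoter windows for 6 of the 9 genes. Among these 13, 1 held a heat shock element core, against 13.5% of all windows. NGFR, SOX9 and TFAP2C had no entry in this set, so their promoters were not searched. That window, printed as the one holding the core (capitals), belongs to the upstream start of TFAP2A and lies on the minus strand at chr6:10419610-10419909, read 5′ to 3′ along the gene:
TFAP2A: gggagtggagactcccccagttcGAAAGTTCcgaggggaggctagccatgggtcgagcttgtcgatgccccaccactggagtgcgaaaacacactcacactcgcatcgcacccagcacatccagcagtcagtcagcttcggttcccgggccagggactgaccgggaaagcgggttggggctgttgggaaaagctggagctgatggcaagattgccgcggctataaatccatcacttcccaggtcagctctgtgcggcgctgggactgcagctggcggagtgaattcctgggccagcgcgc
The core begins 227 bases before the start. The second TFAP2A window, at the canonical start, held none of the 3 motifs.

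**Figure D2:**
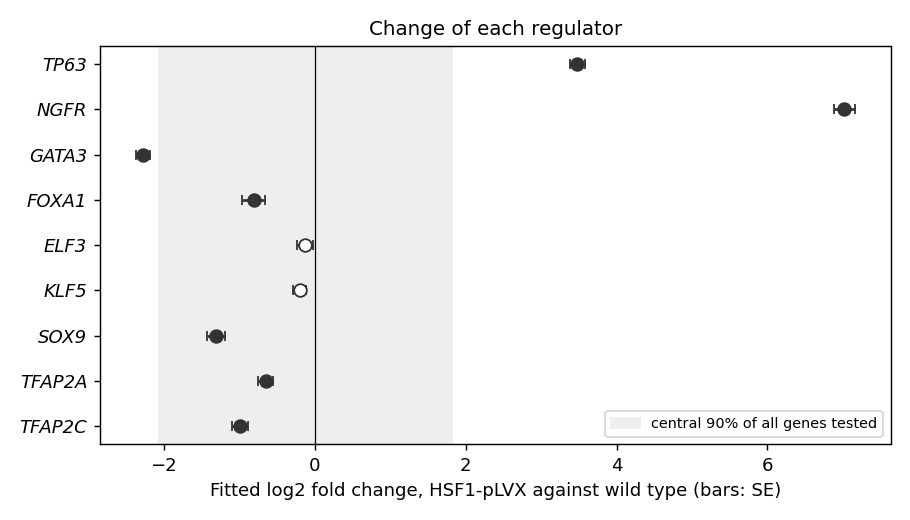
Fitted log2 fold change of each regulator between HSF1-pLVX and wild type cells, with SE bars, filled points for genes past an adjusted p of 0.05 and open points for the others. The grey band runs from the 5th to the 95th percentile of all genes tested, -2.07 to 1.82, and TP63, NGFR and GATA3 lie outside it.

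Compared per length, the order of the regulators changed. In wild type cells SOX9 (38.23 ± 5.20 RPKM) and KLF5 (37.65 ± 2.47 RPKM) stood highest and did not differ beyond their spread (SD, n = 2). They were followed by GATA3 with 32.17 ± 1.34, TFAP2A with 24.98 ± 3.06 and ELF3 with 16.85 ± 1.82 RPKM. TFAP2C, FOXA1, TP63 and NGFR came last, at 9.257 ± 0.181, 3.376 ± 0.291, 1.300 ± 0.133 and 0.3353 ± 0.0523 RPKM. TP63 and NGFR were thus the lowest of the 9 in wild type cells.

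In HSF1-pLVX cells NGFR came first with 43.85 ± 0.669 RPKM and KLF5 second with 32.80 ± 1.06 RPKM (SD, n = 2). TFAP2A (15.91 ± 0.229), ELF3 (15.34 ± 1.98), SOX9 (15.34 ± 2.63) and TP63 (14.47 ± 0.384 RPKM) followed, and each of these differed from its neighbour in the order by no more than their spread. GATA3, TFAP2C and FOXA1 stood last, at 6.591 ± 0.393, 4.677 ± 0.185 and 1.915 ± 0.348 RPKM.

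Ratios of 2 genes within a library do not depend on how libraries are scaled to each other. Per base of exon, TP63 stood at 0.0421 and 0.0386 of GATA3 in the wild type libraries and at 2.07 and 2.34 times GATA3 in the HSF1-pLVX libraries. The mean log2 ratio moved from -4.63 to 1.14, a 54.5-fold shift, and TP63 passed from below to above GATA3 in both HSF1-pLVX libraries. The ratio of TP63 to SOX9 moved from 0.0403 and 0.0288 to 0.826 and 1.09, which puts the HSF1-pLVX libraries on both sides of equality. TFAP2A to TFAP2C was steadier, at 2.50 and 2.89 in wild type and 3.46 and 3.34 in HSF1-pLVX libraries. An exact permutation of 2 libraries against 2 gives p = 0.33 for each of the 3 ratios, the smallest it can give.

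**Figure D3:**
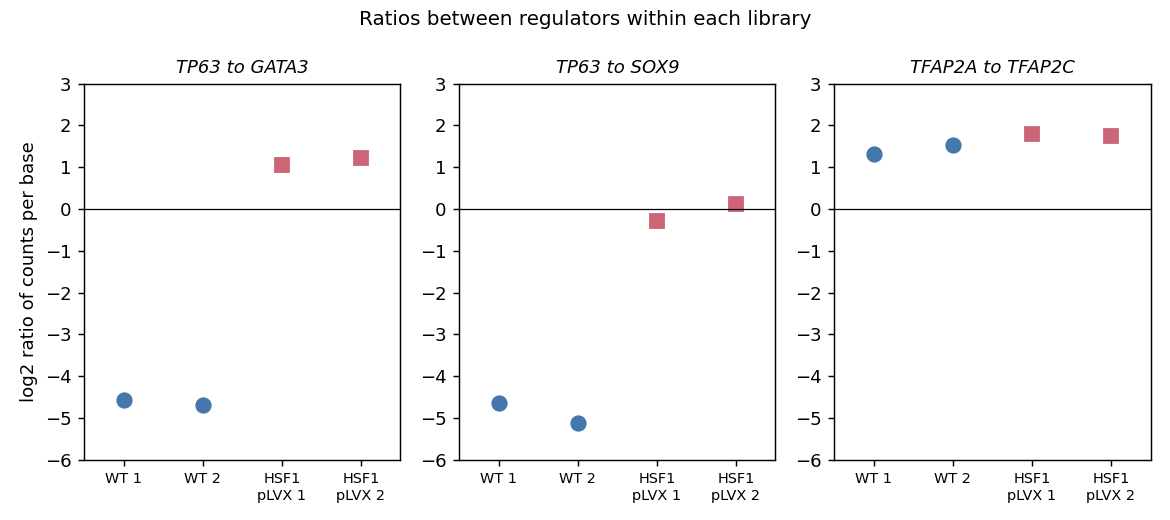
Log2 ratio of the counts per base of 2 regulators within each of the 4 libraries, with blue circles for wild type and red squares for HSF1-pLVX cells and a line at equality. TP63 lies below GATA3 in both wild type libraries and above it in both HSF1-pLVX libraries, while the ratio of TFAP2A to TFAP2C moves by 0.34 on the log2 scale.

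On the authors' deposited values, normalized and log2-like, the study calls a gene changed when its ratio is above 2 or below 0.5 in both replicates. TP63 passed upwards with ratios of 9.217 and 11.19 in replicates 1 and 2, and NGFR with 75.98 and 91.58, as did 5.00% of the 22321 rows. GATA3 (0.2070 and 0.2074) and SOX9 (0.4851 and 0.3230) passed downwards, as did 6.42% of rows. TFAP2C (0.4972 and 0.5229) and FOXA1 (0.6802 and 0.4919) each passed in 1 replicate only and so did not meet the rule. The ratios of TFAP2A (0.6699 and 0.5895), KLF5 (0.9053 and 0.8089) and ELF3 (1.042 and 0.7651) stayed within the limits.

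Some members share genomic span with other transcripts, and the strand setting of the counting is not given in the sources used here, so reads of overlapping genes on opposite strands may not be separated. NGFR-AS1, antisense to NGFR with 202 shared exon bases, had 0 and 0 counts in wild type and 23 and 22 in HSF1-pLVX libraries, at least 6.30-fold higher. A second antisense gene at NGFR, ENSG00000279036, shares 924 exon bases and had 0 and 0 against 15 and 11 counts, at least 3.58-fold higher. Both were thus counted only in the libraries where NGFR was high. At ELF3, ELF3-AS1 (554 shared bases) rose with a log2 fold change of 1.56 (SE 0.306), whereas the same-strand gene ENSG00000249007 (664 shared bases) fell with -1.17 (SE 0.302). Their counts, between 13 and 66 per library, are small beside those of ELF3, between 1992 and 3023. TFAP2A-AS1, which shares 438 bases with TFAP2A, had a log2 fold change of -0.68 that did not pass the test (edgeR adjusted p = 0.0652). TTC6, which shares 16 exon bases with FOXA1 on the other strand, fell with -1.30 (SE 0.393). SOX9-AS1 shares no exon base with SOX9 and had a log2 fold change of -0.35 that did not pass (edgeR adjusted p = 0.416). GATA3-AS1, 2 further genes in or near TP63 and GATA3, and microRNA genes within TP63 and NGFR and near ELF3 had at most 3 counts in any library.

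The lists of related genes that follow were drawn up with earlier results of these data known, and their counts are a description to be set beside 32.7% higher and 33.2% lower among all genes tested. A single value after a gene is its fitted log2 fold change in edgeR, with an SE of 0.0840 to 0.377 and an adjusted p of at most 0.0227 where the gene is said to have risen or fallen. Of 26 genes that TP63 is known to act on, all were tested. Among them 13 were called higher and 10 lower, with a median log2 fold change of 0.25 against 0.02 over all genes tested. The list was not split into activated and repressed genes, so these counts do not show whether its genes followed TP63. FGFR3, a growth factor receptor, rose from 2.355 ± 0.362 to 76.61 ± 10.3 CPM (SD, n = 2 each), a value of 5.02. HAS3, a hyaluronan synthase, rose with 3.52 and S100A2, a calcium-binding protein of basal keratinocytes, with 2.68. The falls were led by IGFBP3, an IGF-binding protein described as repressed by ΔNp63, with -3.56. KRT14, the basal keratin, fell from 530.2 ± 17.2 to 45.12 ± 2.38 CPM (-3.55), and EDN1, which encodes endothelin, with -3.27. KRT5, the partner of KRT14 in basal filaments and named after its values were seen, rose with 1.12 (SE 0.116). So the keratin pair did not move together.

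The basal layer markers were divided as well. Of 26 tested among 28 listed, 11 were higher and 12 lower, with a median log2 fold change of 0.01. KRT15, a keratin of basal progenitors, rose with 2.29, the chemokine CXCL14 with 3.97 from 6 and 3 wild type counts, and vimentin (VIM) with 1.98. TAGLN, a smooth muscle actin-binding protein, fell from 388.0 ± 0.103 to 11.45 ± 0.0320 CPM (SD, n = 2 each), or -5.08, and DKK3, a secreted Wnt pathway protein, fell with -3.48. MYH11, the smooth muscle myosin of differentiated myoepithelial cells, had 0 counts in all 4 libraries. The rise of TP63 and NGFR therefore stood beside basal markers that moved in both directions.

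Of 20 luminal progenitor markers listed, 17 were tested, 4 were higher and 11 lower, and their median log2 fold change was -1.36. The largest falls were those of CD24 (-3.81) and of the luminal keratins KRT8 (-3.24) and KRT18 (-1.73). KRT8 had 3165 ± 11.1 CPM in wild type and 335.4 ± 67.2 CPM in HSF1-pLVX cells (SD, n = 2 each). In contrast, the surface receptor CD14 rose with 6.36, SLPI, a secreted protease inhibitor, with 0.50, and LTF, which encodes lactoferrin, was at least 35.9-fold higher. KIT and ELF5, defining genes of luminal progenitors, had at most 4 counts in any library. CD24 and the keratin genes have near-identical pseudogenes and KRT8 overlaps KRT18 in the annotation, so how the counting split their reads is uncertain. The alveolar factor ELF5 had 0 and 0 counts in wild type and 4 and 1 in HSF1-pLVX libraries, too few to be tested.

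Of 20 mature luminal markers, which belong to hormone-responsive cells, 10 were tested and 6 had at most 3 counts in any library. Of the genes tested 6 were higher and 3 lower, with a median log2 fold change of 1.03. CA12, a carbonic anhydrase, rose from 11.59 ± 0.863 to 253.4 ± 35.7 CPM (SD, n = 2 each), or 4.45. The transcription factor MYB rose with 4.20 and the estrogen-responsive gene GREB1 with 3.25, each from 6 counts in both wild type libraries. INPP4B, a lipid phosphatase, fell with -2.10, AGR2 with -0.63 and the T-box factor TBX3 with -0.54. Without HSF1-pLVX replicate 2 the number lower was 1. The estrogen receptor gene ESR1, which acts together with FOXA1 and GATA3 in hormone-responsive cells and is named after its values were seen, had 59 and 48 counts in wild type and 263 and 148 in HSF1-pLVX libraries and rose with 1.65. The progesterone receptor PGR and the trefoil factors TFF1 and TFF3 had 0 counts in all 4 libraries.

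**Figure D4:**
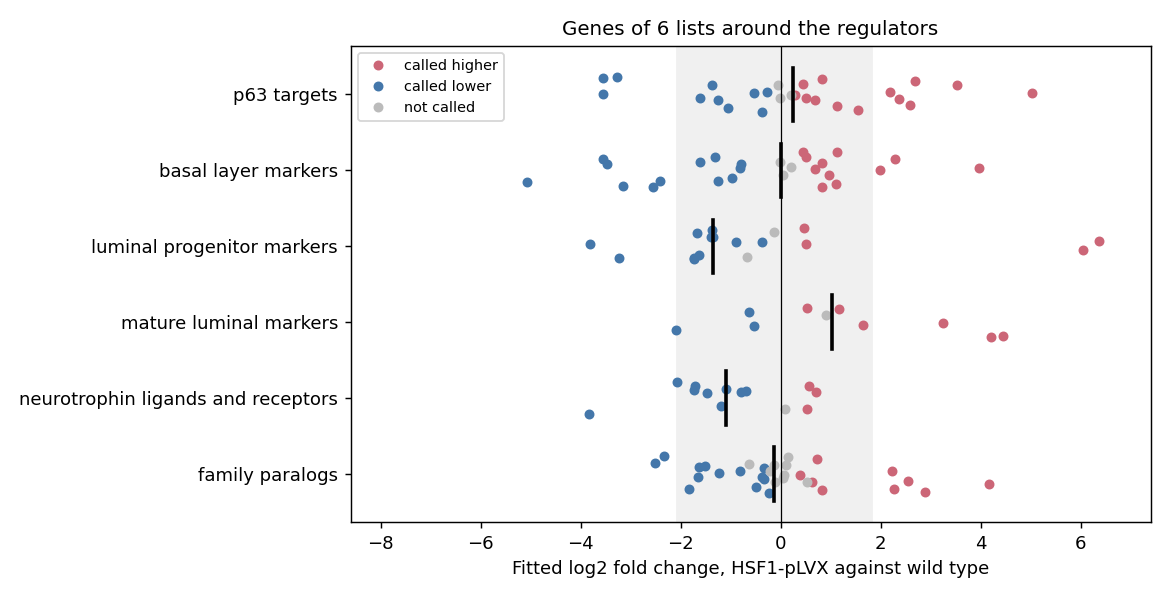
Fitted log2 fold change of every tested gene of 6 lists, coloured red when called higher, blue when called lower and grey when not called, with a black bar at each list's median. The grey band runs from -2.07 to 1.82, the 5th and 95th percentiles of all genes tested. The median of the luminal progenitor markers is -1.36 and that of the p63 targets 0.25.

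NGFR works with neurotrophins, their Trk receptors and sortilin-type co-receptors. Of 23 such ligands, receptors and adaptors listed, 13 were tested, 3 were higher and 9 lower, with a median log2 fold change of -1.10. The ligand BDNF fell from 20.80 ± 0.492 to 1.447 ± 0.0183 CPM (SD, n = 2 each), or -3.84. The co-receptor sortilin (SORT1) fell with -2.08 and the adaptor MAGED1 with -1.74. NTF4, another ligand, rose with 0.71, the sheddase ADAM17 with 0.56 and the sorting receptor SORL1 with 0.52. The receptor genes NTRK2 and NTRK3, named after their values were seen, had at most 3 counts in any library, so both were at or under the floor of 3 counts in both variants.

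Among 50 listed genes related to the regulators by family or name, 31 were tested, 9 were higher and 13 lower, with a median log2 fold change of -0.13. TP73, the p53-family member closest to TP63, rose from 1.312 ± 0.123 to 23.82 ± 1.91 CPM (SD, n = 2 each), or 4.17. FOXA2 rose with 2.26 from a low level, KLF7 with 2.22 and SOX7 with 2.54. TFAP4, which despite its symbol is no AP-2 gene, rose with 2.89. GATA2 fell with -2.52, as its relative GATA3 did, and SOX4 fell with -2.34, from 428.1 ± 37.6 to 84.54 ± 12.9 CPM. KLF6 (-1.65), KLF12 (-1.63) and KLF4 (-1.23) fell, while KLF5 did not pass the test. TNFRSF21, a death receptor of the same superfamily as NGFR, fell with -1.51. TFAP2B and TFAP2D had 0 counts in all 4 libraries, so TFAP2A and TFAP2C were the AP-2 genes expressed, with TFAP2E at 9 to 15 counts per library.

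Markers of other cell types were checked, since NGFR is also known from neural crest, stromal and endothelial cells. Of 9 neural crest and melanocyte markers, 4 had at most 3 counts in any library, and SOX10 and TYR had 0 in all. Their sum was 26.64 and 25.83 CPM in wild type and 6.054 and 4.782 CPM in HSF1-pLVX libraries, and MITF, which made up most of it in wild type cells, fell with -3.81. The sum of this list was thus lower where NGFR was high.

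Of 9 fibroblast markers, COL1A2, COL3A1, LUM and THY1 had at most 3 counts in any library. COL1A1 had 135 and 193 counts in wild type and 269 and 183 in HSF1-pLVX libraries and did not pass the test (edgeR adjusted p = 0.353). The list summed to 199.3 and 227.2 CPM in wild type and 59.86 and 48.92 CPM in HSF1-pLVX libraries, mostly FAP, which fell with -2.35, while DCN, with 1 and 3 against 94 and 87 counts, was at least 25.3-fold higher. The 7 endothelial markers summed to 3.996 and 2.583 CPM in wild type and 14.10 and 15.05 CPM in HSF1-pLVX libraries, mostly KDR, which rose with 2.92, and CLDN5 had at most 4 counts. The part of DCN- or KDR-expressing cells in the rise of NGFR was not tested. Of 8 immune markers 5 had at most 3 counts in any library, PTPRC had 0, and the sum, mostly CSF1R, was 25.89 and 21.96 CPM against 5.058 and 3.976 CPM. The 5 adipocyte markers summed to 0.2152 to 0.7047 CPM, with LEP at 0 in all libraries.

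For each regulator, the tested gene of like expression whose centred log2 CPM lay closest over the 4 libraries was found among 1935 to 4611 candidates. For TP63 this was PHGDH, the first enzyme of serine synthesis, with a root mean square difference of 0.0940 on the log2 scale. For NGFR it was AQP3, a water and glycerol channel, at 0.786, so that no gene of like level followed NGFR closely. For GATA3 it was VWA5A at 0.0274. The closest genes to the others were ARL15 for FOXA1, PKN2 for ELF3, SEPTIN7 for KLF5, TRAM1 for SOX9, TES for TFAP2A and LACTB for TFAP2C, at differences of 0.00795 to 0.0400. With 4 libraries and so many candidates such closeness is a description only.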

How the data were processed

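RNA was measured by paired-end sequencing (reads of 76 bp) of ribosomal RNA-depleted total RNA in 4 MCF10A libraries. The authors aligned reads to hg38 with HISAT2 2.0.5, processed them with SAMtools 1.13 and deposited raw counts per gene made with featureCounts 1.6.5, for GENCODE release 26 by the file's name. The strand, overlap and multi-mapping settings are not given in the sources used here. In a further table the authors deposited normalized expression on a log2-like scale (DESeq2 1.32.0). Its values for the 9 genes matched a blind variance-stabilizing transformation by DESeq2 to within 2.05e-05.

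Samples were grouped by title. Symbols were taken from GENCODE release 44 by gene identifier. The test was that of edgeR 4.0.16 under R 4.3.3 (TMM, filterByExpr, quasi-likelihood test, no covariate), with Benjamini-Hochberg adjustment over all genes tested and a call at 0.05. Intervals use the SE and the fit's degrees of freedom. The earlier analysis of these data used the replicate number as a block. It was left out here because neither labels nor methods say what a number marks and a block leaves 1 residual degree of freedom. Each group has 2 libraries, described as biological replicates, so p-values rest on a spread shared between genes (median prior degrees of freedom 11.9). Replicates differed by more than sampling noise (chi-square per degree of freedom 4.39 in wild type, 5.30 in HSF1-pLVX cells). A group with 3 counts or fewer in each library counted as at the floor, and folds against it are bounds computed with 3 counts per library, for counting error only.

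The 9 genes, the lists and the rules were chosen with earlier results of these data known. Named were the 9 genes, the 3 largest called rises and falls of each list with at least 50 counts in both libraries of the higher group, paralogs called with at least a 2-fold change, genes overlapping a regulator or starting within 5 kb, and the closest gene by pattern. Alternatives were DESeq2 1.42.0 (size factors and Wald test), library size alone, no filter, limma 3.58.1 (voom), the block, each library left out and the deposited values. The fit was tested on simulated data, with 3 draws of 200 changed genes each, random in direction. The spread followed the fit's own trend with expression, without variation particular to a gene. Simulated log2 changes of 0.5, 1 and 2 were recovered in 45.3%, 78.6% and 96% of cases, and 4.1% of calls were false. In the data 65.9% of genes were called, so these shares are not error rates for this comparison.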

Additional observations from a re-analysis of the deposited data

How the results depend on the processing

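Over 11 alternatives for each of the 9 regulators and HSF1, 8 of these genes kept their direction and their call, with log2 fold changes of 6.86 to 7.21 for NGFR, 3.36 to 3.60 for TP63, -2.34 to -2.22 for GATA3, -1.01 to -0.63 for FOXA1, -1.50 to -1.14 for SOX9, -0.76 to -0.54 for TFAP2A, -1.02 to -0.93 for TFAP2C and 2.29 to 2.41 for HSF1. KLF5 passed the threshold under limma voom (log2 fold change -0.20, adjusted p = 0.0498), without wild type replicate 1 (-0.25) and with the crossed pairing (-0.20). With each library left out it lay between -0.25 and -0.15. ELF3 lay between -0.27 and 0.0021 with each library left out, the upper value without HSF1-pLVX replicate 2. The number of mature luminal markers called lower, 3, was between 1 and 3 with each library left out. The cause of these was not tested. On the deposited values, which shrink differences of low counts and carry no test here, NGFR differed by 6.38 and GATA3 by -2.27. Genes called over all tested stayed within 1.5 times of 5175 higher and 5253 lower, with 4129 and 4540 under DESeq2's Wald test and 3783 and 3846 without HSF1-pLVX replicate 2.

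With the replicate number as a block 5138 genes were higher and 5171 lower, and no regulator changed its call. Deviations of libraries with the same number from their group means correlated with 0.000143 across all genes tested and -0.113 over the 9672 genes above 8 CPM, so the numbers were not taken as pairs. With the crossed pairing, added after this was seen, 5429 genes were higher and 5487 lower. Depth limits NGFR in wild type cells, with 23 and 29 counts, more than any other of the regulators.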
